A study of Mus musculus with 6 samples.

Results

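The genes described here were counted at a very low level in DMSO-treated T cells and at a higher but still low level after 2 h with disulfiram (DSF). A gene was taken when its mean level was under 1 CPM (counts scaled by the library's summed counts) in the DMSO libraries, and at least 1 CPM and at least 2 times the DMSO mean in the DSF libraries, with the lowest DSF library above the highest DMSO library. Tppp, Tppp3, Tub, Lrrc23, Spns2 and symbols made of Gm plus digits were left out by name. In the deposited table, which lists 55536 genes, 45 met the rule, and 11 more met every numeric condition but were left out by name, 5 by symbol and 6 as Gm models. These genes were chosen by the change in CPM between the groups, so their levels are a description, and where a call of them by a test is counted it supports nothing. The same rule with DSF and DMSO exchanged found 8 genes.

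The cells were wildtype primary OT-I T cells from mouse lymph nodes, kept in complete RPMI medium with DSF or with dimethyl sulfoxide (DMSO), the solvent, for 2 h, and each group had 3 libraries. T cells of OT-I mice have a transgenic receptor for an ovalbumin peptide presented on a class I molecule. DSF is a thiuram disulfide known as an inhibitor of aldehyde dehydrogenase and as a binder of metal ions, and the labels give no dose. The labels call the libraries biological replicates without naming animals or cultures, so p-values measure only the spread between these libraries.

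The DSF libraries held 18082264, 19611354 and 20951998 counts and the DMSO libraries 18528236, 21893720 and 20149539, and 3 counts were worth 0.137 to 0.166 CPM. Directions rest on reading the deposited codes DF and DO as DSF and DMSO. All 11 T cell markers listed for the check were measured, with a summed level of 2855 to 2919 CPM in DSF and 3099 to 3159 CPM in DMSO libraries, and 5 of them were called lower and 1 higher. Of the genes tested, 22.9% changed by edgeR's quasi-likelihood test at a Benjamini-Hochberg adjusted p under 0.05, with 11.6% higher and 11.3% lower in DSF. In bulk RNA, more cells that express a gene and more RNA per cell cannot be told apart.

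Most tissue-specific genes are held silent in T cells by closed chromatin and by the lack of their activators. Some genes of motile cilia and sperm flagella, though not all, are among them. Both structures are built on the axoneme, a cylinder of microtubule doublets with dynein arms, radial spokes and a central pair. Regulatory factor X (RFX) proteins bind a sequence called the X-box in the promoters of many ciliary genes, and Rfx2 and Rfx3 are known activators of ciliogenesis, while Rfx5 with Rfxank and Rfxap acts at class II genes.

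The promoters were searched for an X-box written as the half-site GTNNCC, 3 free bases and the half-site GNNAC, on either strand. Promoters were the RefSeq stretches of 300 bases in GRCm38.p6, 250 before and 50 after a start, and 36 of the 45 genes were matched by symbol. The X-box stood in 11 of these 36, or 30.6%, against 5.23% of 26989 other promoters, 9.77% of 1238 other genes called higher and 3.10% of 1226 genes called lower. These 7 sites, printed because they lie within 100 bases of a start, carry the motif in capitals with up to 8 flanking bases, 5′ to 3′ on the gene's strand.
Enkur: tagcaactGTTTCCTTAGCAACcacgtggt
Spag6l: tgctgtcgGTTGCCCTGGAGACgc
Cfap45: gttcttggGTTGCTATGGTAACgcgtcagc
Mok: gtctggcgGTTGCTAAGGCGACaggaatac
Igsf9: gattggcgGTCTCCAGGGCGACgggaggcg
Ankrd42: gtgtactcGTTTCCAAGGTGACggccacgc
4930562F07Rik: ctaggactGTATCCGTGGCAACtctggaat
Their coordinates were chr2:21205356-21205385 for Enkur, chr16:16829314-16829337 for Spag6l, chr1:172521103-172521132 for Cfap45, chr12:110840912-110840941 for Mok, chr1:172482152-172482181 for Igsf9, chr7:92637115-92637144 for Ankrd42, chr1:160078017-160078046 for 4930562F07Rik. Cfap45 and Igsf9 lie on the plus strand and the others on the minus strand, and the X-box of Cfap45 and of Mok was matched on the strand opposite to the gene. The eighth site near a start is in Lrguk, whose 250 bases before the start (chr6:34029198-34029447, plus strand) are printed because a cAMP response element, TGACGTCA, stood directly before the X-box, both in capitals.
Lrguk: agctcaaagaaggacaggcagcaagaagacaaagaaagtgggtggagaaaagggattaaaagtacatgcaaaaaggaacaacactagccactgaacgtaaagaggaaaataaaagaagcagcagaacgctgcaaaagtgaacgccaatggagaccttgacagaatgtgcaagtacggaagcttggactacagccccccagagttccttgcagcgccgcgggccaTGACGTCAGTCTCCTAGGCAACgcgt
The remaining X-boxes were in Dpf1, Pih1d2 and Tiam2, with first bases at -229, -231 and -121 relative to an annotated start. For Tiam2 that start lies inside the gene, since the X-box is at chr17:3483369-3483382 and the gene begins at 3326573 on the plus strand. Some genes have several annotated starts, on average 1.28 per gene in the group and 1.27 among 10096 other tested genes. With the first start only, the X-box stood in 27.8% of the promoters of the group, against 8.56% for other genes called higher and 5.32% for other tested genes. A match is a description of letters and not evidence that a protein was bound.

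**Figure D1:**
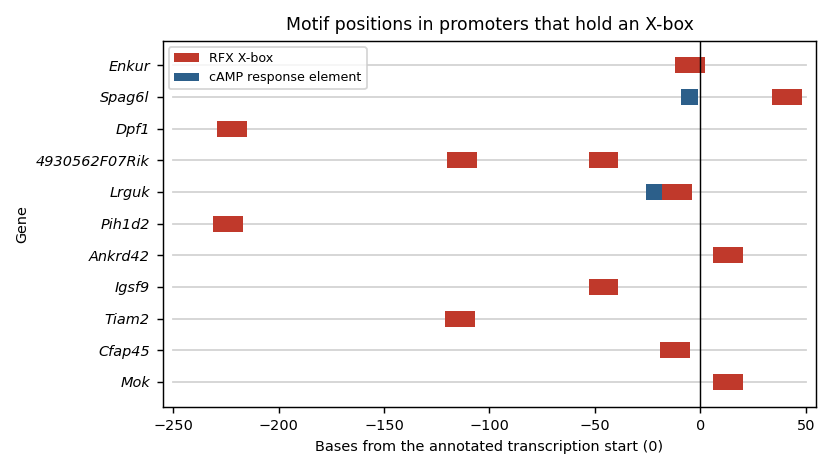
Position of the X-box (red, 14 bases) and of the cAMP response element (blue, 8 bases) in the 11 promoters that hold an X-box, in bases from the annotated start at 0, genes ordered by mean DSF level. In 8 genes the motif begins within 100 bases of a start, and 4930562F07Rik has 1 site seen from 2 annotated starts.

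The X-boxes were also counted by what the genes encode, in small classes chosen with earlier results of these data known. Differences between classes were not tested, and no share is given here for ciliary or sperm genes outside the group. They stood in 6 of 10 promoters of cilium, flagellum and sperm genes, 3 of 7 of nervous system genes, 1 of 4 of genes with no assigned role and 1 of 2 of noncoding RNA genes. None stood in the 13 promoters of secreted, membrane or nucleic acid binding proteins. The cAMP response element was found in 3 promoters (8.33%), those of Lrguk, Spag6l and Creb5, against 3.63% of other tested genes and 2.02% of all other promoters. Further motifs, searched on both strands with overlaps allowed, were the AP-1 site TGANTCA, the E-box CACGTG, the metal response elements TGCACNC and TGCGCNC, the antioxidant response element TGACNNNGC and the heat shock element, as GAANNTTC with GAA after 2 more free bases. Of these, the E-box had a share above that of other tested genes, 13.9% against 11.6%, and the antioxidant response element had 5.56% against 16.8%. In the order above these motifs stood in 5.56%, 13.9%, 13.9%, 25%, 5.56% and 0% of the promoters of the group, and in 8.98%, 8.08%, 14.2%, 17.0%, 14% and 0.663% of all other promoters. The motifs were chosen after the genes were known.

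**Figure D2:**
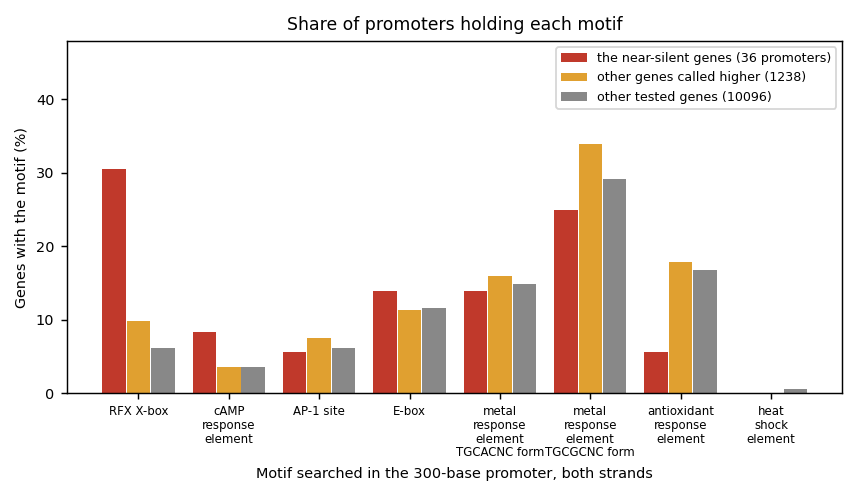
Percent of genes with each motif on either strand of the 300-base promoter, for 36 of the near-silent genes (red), 1238 other genes called higher in DSF (yellow) and 10096 other tested genes (grey). The X-box stands at 30.6%, 9.77% and 6.21%.

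Genes of the RFX family, which are not in the group, were chosen for a look after the X-box had been seen in the promoters. Rfx1 had 141, 140 and 145 CPM in DSF libraries, against 40.5, 44.9 and 45.5 CPM in DMSO libraries. Rfx2 had 15.5, 15.6 and 17.4 CPM in DSF libraries, against 1.30, 1.87 and 1.54 CPM in DMSO libraries. Rfx3 had 71.0, 62.9 and 67.7 CPM in DSF libraries, against 15.2, 15.6 and 15.8 CPM in DMSO libraries. The groups did not overlap in any of these 3 genes. By edgeR's quasi-likelihood test with Benjamini-Hochberg adjustment, the log2 fold change was 1.71 ± 0.05 (SE, n = 3 libraries per group, adjusted p = 1.44e-22) for Rfx1. It was 3.35 ± 0.14 (adjusted p = 1.89e-18) for Rfx2 and 2.12 ± 0.06 (adjusted p = 1.44e-22) for Rfx3 by the same test. Rfx5, Rfx7, Rfxank and Rfxap did not pass, with log2 fold changes of -0.04, -0.04, 0.06 and -0.07, and Rfx4, Rfx6 and Rfx8 were too low to be tested. Whether these changes bear on the near-silent genes was not tested.

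All 45 genes passed the expression filter and all were called higher by the same test, beside 11.6% of all tested genes. They passed the filter through the DSF libraries that chose them, and nothing is read from that count. In all 45 the lowest DSF library lay above the highest DMSO library, as the rule required and as in 16.7% of all tested genes. Their summed level was 101, 102 and 104 CPM in DSF libraries, against 24.1, 21.6 and 20.9 CPM in DMSO libraries. The median gene had a mean of 1.78 CPM in DSF and 0.472 CPM in DMSO, and the ratio of means ran from 2.01 to 44.4 with a median of 3.44. It was at least 10 in 8 genes and under 3 in 16. Per transcript length, the authors' group means in TPM (transcripts scaled to length and depth) had a median of 1.02 TPM in DSF and 0.27 TPM in DMSO, and the highest, Enkur, was given 9.99 TPM in DSF and 0.677 TPM in DMSO by the authors. The group therefore stayed low in DSF libraries too. The spread between DSF libraries, a median coefficient of variation of 17.3%, was about that of counting alone, 16.9%. By the rule no gene of the group could be at 0 in a DSF library, and Camkv, DXBay18 and Plat were at 0 in at least 1 DMSO library. Summed over the DMSO libraries, the genes had from 4 to 60.84 counts, so most were low there and not absent.

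**Figure D3:**
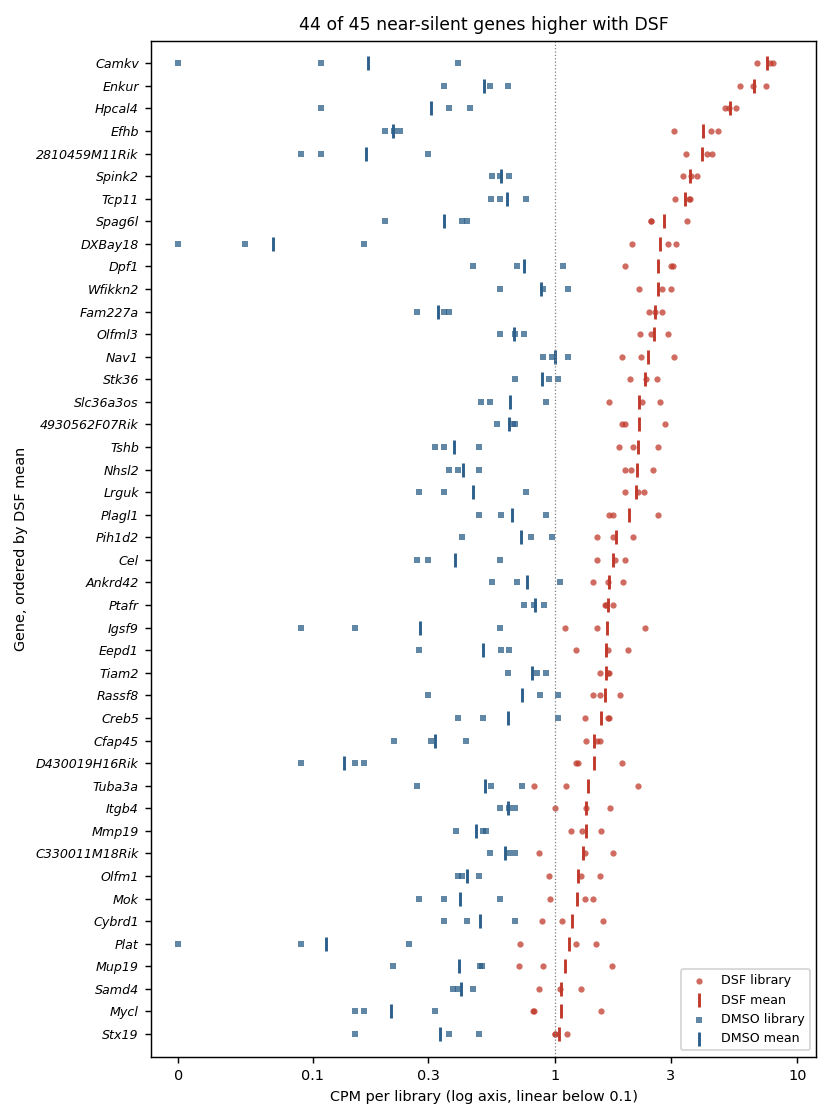
CPM of 44 of the 45 genes in the 3 DSF libraries (red circles) and the 3 DMSO libraries (blue squares), with group means as vertical strokes, on a log axis that is linear below 0.1. The groups do not overlap in any gene shown, which the rule required, and 3 genes have a DSF mean of at least 5 CPM.

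The largest class by number, with 11 genes, encodes parts of cilia, flagella and sperm. Enkur encodes enkurin, a protein of sperm and of ciliary doublet microtubules, and lies on chromosome 2 at 21180731 to 21205365 of GRCm38 (ENSMUSG00000026679). It had 7.47, 5.81 and 6.54 CPM in DSF libraries, against 0.540, 0.639 and 0.347 CPM in DMSO libraries, a ratio of 12.98. Efhb, which encodes an EF-hand protein of ciliary doublets, had 4.70, 3.11 and 4.40 CPM in DSF libraries, against 0.216, 0.228 and 0.199 CPM in DMSO libraries, a ratio of 19.0. Spag6l, which encodes a protein of the axoneme's central pair, had 2.49, 3.52 and 2.48 CPM in DSF libraries, against 0.432, 0.411 and 0.199 CPM in DMSO libraries, a ratio of 8.15. In all 3 genes every DSF library stood several times above every DMSO library.

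Sperm genes followed with ratios between 4.70 and 6.08. Spink2, which encodes a protease inhibitor of the acrosome, had 3.87, 3.37 and 3.63 CPM in DSF libraries, against 0.594, 0.548 and 0.645 CPM in DMSO libraries. Tcp11, a testis gene needed for normal sperm, had 3.58, 3.62 and 3.13 CPM in DSF libraries, against 0.756, 0.594 and 0.546 CPM in DMSO libraries. Lrguk, which encodes a protein needed to shape the sperm head and tail, had 1.94, 2.19 and 2.34 CPM in DSF libraries, against 0.756, 0.274 and 0.347 CPM in DMSO libraries. These groups were well apart, though the rule required them not to overlap and Lrguk rested on 27 counts over the DMSO libraries. Cfap45, for a protein inside ciliary doublets, averaged 1.45 CPM in DSF and 0.318 CPM in DMSO. Stk36, for a kinase needed for the central pair, averaged 2.35 CPM in DSF and 0.885 CPM in DMSO. Pih1d2, from a family that helps assemble dynein arms, Mok, for a kinase of the cilium, and the testis tubulin gene Tuba3a had ratios of 2.45, 3.05 and 2.66. Together the 11 genes summed to 30.9 ± 1.52 CPM in DSF and 5.61 ± 0.672 CPM in DMSO (SD, n = 3 libraries each).

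The 8 genes of the nervous system included the one with the largest ratio. Camkv encodes a kinase-like protein of neuronal vesicles and dendritic spines and lies on chromosome 9 at 107935674 to 107949691 of GRCm38 (ENSMUSG00000032936). It had 7.69, 6.83 and 7.92 CPM in DSF libraries, against 0.108, 0 and 0.397 CPM in DMSO libraries, a ratio of 44.4 that rests on 10 counts in DMSO. Hpcal4, which encodes a neuronal calcium sensor, had 5.59, 5.05 and 5.25 CPM in DSF libraries, against 0.108, 0.365 and 0.447 CPM in DMSO libraries, a ratio of 17.3. The DSF libraries of both genes lay close together and far above the DMSO libraries. Dpf1, for a subunit of the neuronal BAF chromatin remodeller, had 1.94, 3.06 and 3.01 CPM in DSF libraries, against 1.08, 0.457 and 0.695 CPM in DMSO libraries. Nav1, for a microtubule-binding protein of growing axons, had 2.27, 1.89 and 3.10 CPM in DSF libraries, against 0.971, 1.13 and 0.893 CPM in DMSO libraries. In both of these the groups were apart by less than 1 CPM. Igsf9, for an adhesion protein of dendrites, had a ratio of 5.92. Olfm1, for a secreted neuronal glycoprotein, and Tiam2, for an exchange factor of Rac, had ratios of 2.89 and 2.02. The class summed to 24.2 ± 0.898 CPM in DSF and 4.03 ± 0.661 CPM in DMSO.

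Another class, of 7 genes, encodes secreted proteins of other tissues. Tshb, which encodes the beta subunit of thyroid-stimulating hormone, had 2.65, 1.84 and 2.10 CPM in DSF libraries, against 0.486, 0.320 and 0.347 CPM in DMSO libraries. Olfml3, for a matrix glycoprotein, had 2.93, 2.24 and 2.48 CPM in DSF libraries, against 0.594, 0.685 and 0.744 CPM in DMSO libraries. Wfikkn2, for an inhibitor of growth differentiation factors, had 2.21, 2.75 and 3.01 CPM in DSF libraries, against 1.13, 0.594 and 0.893 CPM in DMSO libraries. The rule required that the groups not overlap in these 3 genes, and among them the gap was smallest for Wfikkn2. Cel, for a pancreatic lipase, Plat, for tissue plasminogen activator, Mmp19, for a matrix metalloproteinase, and Mup19, for a major urinary protein of liver, had ratios of 4.47, 10.0, 2.84 and 2.76. The class summed to 12.7 ± 0.474 CPM in DSF and 3.30 ± 0.262 CPM in DMSO.

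The 5 membrane and adhesion genes had a median ratio of 2.20, the lowest of the classes. They were Ptafr, for the receptor of platelet-activating factor, Itgb4, for an integrin of epithelial hemidesmosomes, Cybrd1, for a ferric reductase of the gut, Stx19, for a syntaxin, and Rassf8, for a protein of cell junctions. Their ratios ran from 2.01 to 3.12, and they summed to 6.82 ± 0.791 CPM in DSF and 3.02 ± 0.721 CPM in DMSO. The 5 genes for nucleic acid binding and repair were the transcription factor genes Plagl1, Creb5 and Mycl, the RNA-binding protein gene Samd4 and the DNA repair gene Eepd1. Their ratios ran from 2.42 to 5.04, and they summed to 7.32 ± 1.13 CPM in DSF and 2.43 ± 0.284 CPM in DMSO.

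The remaining genes are noncoding or have no role assigned here. DXBay18, on chromosome X, had 2.07, 3.14 and 2.91 CPM in DSF libraries, against 0.162, 0 and 0.0496 CPM in DMSO libraries, a ratio of 38.4 that rests on 4 counts in DMSO. Its transcript is 99.9% identical over its full length to that of Gm14685, which lies 7.97 kb away. Gm14685 had 4.31 ± 0.771 CPM in DSF and 0.0609 ± 0.105 CPM in DMSO. In all, 4 other genes match DXBay18 at 95% identity or more over at least 200 bases, so its counts are uncertain among them. 2810459M11Rik had 3.48, 4.23 and 4.44 CPM in DSF libraries, against 0.108, 0.0914 and 0.298 CPM in DMSO libraries, a ratio of 24.5. Fam227a had 2.77, 2.45 and 2.58 CPM in DSF libraries, against 0.270, 0.365 and 0.347 CPM in DMSO libraries, a ratio of 7.93. The DSF and DMSO libraries of these genes were far apart, though the rule required them not to overlap. Nhsl2, D430019H16Rik and Ankrd42 had ratios of 5.24, 10.8 and 2.18. The noncoding RNA genes were Slc36a3os, 4930562F07Rik and C330011M18Rik, with ratios of 3.42, 3.44 and 2.10. Copies at least 95% identical over 200 bases or more also make the counts of Mup19, with 15 such genes, and of Tuba3a, with Tuba3b, uncertain. By the same limits, part of the transcript of 4930562F07Rik, Mmp19, Tcp11, Samd4, Nav1 and Cybrd1 matches another gene. The longest match covered 36.3%, 23.2%, 22.5%, 12.3%, 4.50% and 3.95% of the transcript in that order, so these counts may be uncertain too.

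**Figure D4:**
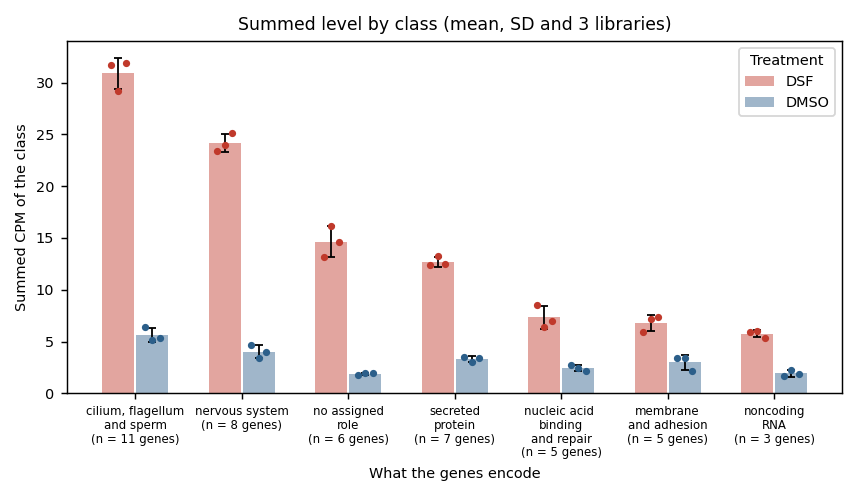
Summed CPM of each class of the 45 genes in DSF (red, left) and DMSO (blue, right), as bars for the mean of 3 libraries, whiskers for the SD and points for libraries. The cilium, flagellum and sperm class reaches 30.9 CPM in DSF and 5.61 CPM in DMSO, and every class is higher in DSF, as the choice of genes required.

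Gene Ontology terms in the authors' annotation covered 41 of the 45 genes. Words for cilium, flagellum or axoneme stood in the terms of 5 genes (12.2%), against 3.47% of other tested genes. Words for sperm or acrosome stood in 9.76% against 3.17%, and words for the extracellular region in 17.1% against 6.36%. Words for neuron, synapse, axon or dendrite stood in 24.4% against 15.6%, and words for calcium in 9.76% against 6.54%. Words for the plasma membrane were at 19.5% against 20.4%, and words for the nucleus at 14.6% against 35.9%. These differences in share were not tested. The 45 genes lay on 17 chromosomes, 6 of them on chromosome 1, and 42 were annotated as protein coding.

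Ciliary genes outside the group also moved, in a list of axoneme and ciliogenesis genes. Of the 23 tested genes of this list outside the group, 10 were called higher and 0 lower by edgeR's quasi-likelihood test, or 43.5% higher beside 11.6% of all tested genes. Their median log2 fold change was 0.45, against 0.00 for all tested genes. The 10 included Rfx2 and Rfx3 themselves. Ccdc39, for a ruler protein of the axoneme, averaged 2.13 ± 0.632 CPM in DSF and 1.03 ± 0.390 CPM in DMSO. Ccdc114, for a docking protein of dynein arms, averaged 7.79 ± 0.376 CPM in DSF and 4.16 ± 0.675 CPM in DMSO. Gas8, for a subunit of the dynein regulatory complex, averaged 28.4 ± 1.11 CPM in DSF and 18.4 ± 0.800 CPM in DMSO. Dnal1, Rsph3a, Iqcg, Wdr78 and Ccdc40 were also called higher, with log2 fold changes between 0.26 and 0.72. Foxj1, the factor that drives motile cilia, did not pass, at 1.29 ± 0.745 CPM in DSF and 0.741 ± 0.630 CPM in DMSO. The list has 60 genes in the deposited counts, and besides these 23 only 3 passed the filter, the group's Cfap45, Enkur and Spag6l. The share called higher is therefore one of tested genes only. In 7 genes of the list, Hydin and Spag17 among them, no library had a count.

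**Figure D5:**
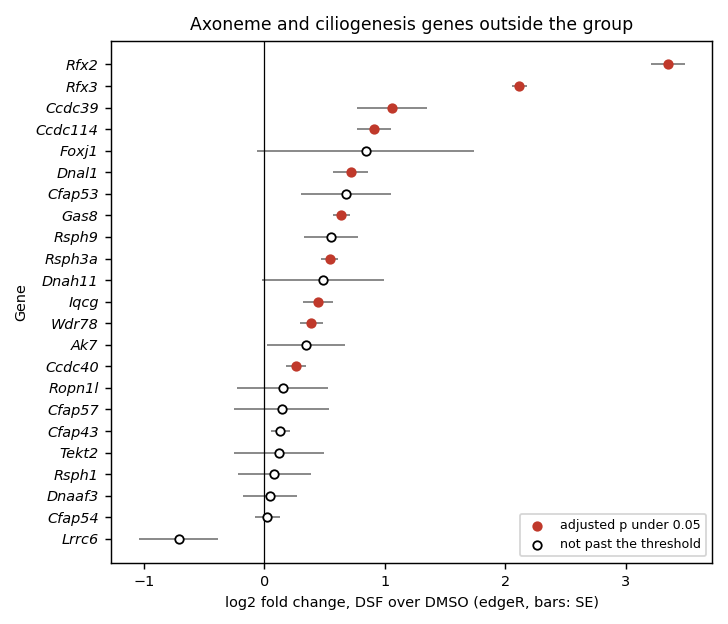
Log2 fold change, DSF over DMSO, with SE from edgeR for the 23 tested axoneme and ciliogenesis genes outside the group, filled where the adjusted p is under 0.05. Rfx2 at 3.35 and Rfx3 at 2.12 lead, 10 genes are filled, and Lrrc6, the lowest, is open.

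Lists for other tissues were counted in the same way. Over all tested genes, 11.6% were called higher and 11.3% lower. In the neuronal synapse and axon list 3 of 18 tested genes were called higher and 1 lower, in the ion channel list 3 of 29 and 0, in the germ cell list 2 of 22 and 0, and in the muscle list 1 of 19 and 0, by the same test. The epithelial junction list had 4 of 21 higher and 0 lower, among them Ocln, which encodes the tight junction protein occludin, at 18.8 ± 2.14 CPM in DSF and 1.48 ± 0.175 CPM in DMSO. The extracellular matrix and growth factor list had 4 of 31 higher and 3 lower. In the order given, 16.7%, 10.3%, 9.09%, 5.26%, 19.0% and 12.9% of the tested genes of these lists were called higher. Differences between lists were not tested. Among lists for the machinery of silencing, polycomb and DNA methylation genes had 10 of 51 higher and 7 lower, deacetylase and REST corepressor genes 6 of 37 higher and 1 lower, and genes for transcript end processing 3 of 44 higher and 6 lower.

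Markers of other cell types were summed beside these classes. The 10 ciliated cell markers in the table reached 47.8 to 48.9 CPM in DSF and 36.6 to 42.9 CPM in DMSO, with Spag6l among them and none at 0 in all libraries. The 11 neuron and glia markers reached 116 to 123 CPM in DSF and 80.1 to 82.8 CPM in DMSO, mostly from Mbp, at 116 ± 4.06 CPM in DSF and 78.5 ± 1.35 CPM in DMSO. The 8 epithelial markers reached 9.79 to 12.6 CPM in DSF and 8.74 to 9.64 CPM in DMSO. Of the neuron and glia markers and of the epithelial markers, 1 of 3 tested was called higher in each list and 0 lower. No stromal or B cell marker was called in either direction. Of 8 tested myeloid markers 3 were lower and 0 higher, and of 3 erythroid and platelet markers 1 was higher. Of 3 natural killer cell markers only Eomes was lower, at 34.4 ± 1.80 CPM in DSF and 43.1 ± 1.01 CPM in DMSO. Klrb1c and Klre1 did not pass. These counts stand beside 11.6% higher and 11.3% lower over all tested genes. Their part in the levels of the near-silent genes was not tested.

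Many of the near-silent genes lay beside a gene that rose. A gene called higher overlapped the gene body or lay within 5 kb of it for 16 of the 45 genes (35.6%), against 9.33% of other tested genes. It overlapped the body in 8 genes (17.8%), against 3.64%. A gene called lower was that near in 0 of the 45, against 9.47% of other tested genes. This comparison was chosen after the values were seen.

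4930562F07Rik shares 67.0% of its exonic bases with 4930523C07Rik on the opposite strand, which had 279 ± 12.3 CPM in DSF and 103 ± 2.86 CPM in DMSO. Mmp19 shares 22.3% with Tmem198b on the opposite strand, at 11.9 ± 1.66 CPM in DSF and 6.63 ± 0.550 CPM in DMSO. Each of these partners had a higher CPM, not corrected for length, than the near-silent gene. Since the sources used here do not say whether counting used the strand, reads of opposite-strand partners may be shared. C330011M18Rik overlaps Rfx1 and Tuba3a overlaps 4930417O13Rik on the opposite strand, by 2.27% and 4.97% of exonic bases. The bodies of Stx19, Tshb and Nhsl2 overlap Arl13b, a gene for a ciliary GTPase, Tspan2, a tetraspanin gene, and Rtl5 on the opposite strand, and these partners had log2 fold changes of 1.82, 1.59 and 0.78 by edgeR. Tcp11 shares 11.6% of exonic bases with AC132460.1 on the same strand, which was nearly uncounted. In all, 16 of the 45 genes share exonic bases with another gene, 4 of them on the same strand, and 29 share none.

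Of the same-strand genes next before the start, 20 were tested and 7 called, 6 higher and 1 lower, which is 35% beside 22.9% of all tested genes. Within 5 kb 3 were tested and 2 called. Hipk1, for a protein kinase, ends 1.81 kb before Olfml3 and had 822 ± 30.4 CPM in DSF and 284 ± 14.3 CPM in DMSO. Gtf3c5, for a subunit of a polymerase III factor, ends 2.91 kb before Cel and had 86.6 ± 2.63 CPM in DSF and 44.5 ± 1.13 CPM in DMSO. Cel also has Ralgds 2.71 kb beyond its end, at 326 ± 11.1 CPM in DSF and 24.9 ± 1.38 CPM in DMSO. Among genes starting close by on the other strand, Thnsl1, 359 bases from Enkur, had 8.32 ± 1.23 CPM in DSF and 4.06 ± 0.305 CPM in DMSO, and Cby1, a centriole protein gene 243 bases from Fam227a, had a log2 fold change of 0.29 ± 0.08 (SE). Rnf25, 48 bases from Stk36, did not pass. Whether reads running on from these genes entered the counts was not tested.

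The limits of the rule cut through close values. Just inside the DSF limit were Stx19 at 1.04, Mycl at 1.06 and Samd4 at 1.06 CPM, and just outside were Kcnc1 at 0.993 and A730063M14Rik at 0.974 CPM. Just inside the DMSO limit were Nav1 at 0.9998, Stk36 at 0.885 and Wfikkn2 at 0.874 CPM, and just outside were Siah3 at 1.01, Ccdc39 at 1.03 and Muc1 at 1.10 CPM. Just inside the ratio limit were Ptafr at 2.01, Tiam2 at 2.02 and Itgb4 at 2.09, and just outside were Inka1 at 1.99, Wwc1 at 1.94 and Iqcn at 1.91.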

How the data were processed

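Per the labels' protocols, a SMARTER mRNA kit turned 1 µg of total RNA into each library. The submitters' processing notes name GRCm38 (mm10) as the build. The aligner, counting program and strandedness of the authors are not known from the labels or headers. The authors deposited estimated counts per gene and library, not normalised, and mean TPM per group. Their deposited tables also give a linear fold (ratio), log2 fold changes and p-values, per the file headers. Columns headed A and B were taken as the groups coded DO and DF, because counts of B over A had the direction of the deposited mean TPM of DF over DO in 237 of 238 genes that differed at least 2-fold. That DO stands for DMSO and DF for DSF is a reading of the codes which no label states. The 6 library columns of TPM were not used.

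CPM is the estimated count scaled by the column sum. For tests, counts were rounded to whole numbers (the design had assumed whole counts), filtered with filterByExpr to 14318 genes and scaled by TMM, with factors of 0.995 to 1.005. The quasi-likelihood test of edgeR 4.0.16 in R 4.3.3 was robust and two-sided, with group as its term and Benjamini-Hochberg adjustment. DESeq2 1.42.0, other scalings, filters and rule limits, each library left out, and a block on the numbers in the column names were alternatives. SE was the log2 fold change divided by the root of F. The fit was tested on simulated data. Replicate libraries differed from counting error by chi-square values of 2.16 to 4.01 per degree of freedom, so none were merged. Positions came from GENCODE M21, promoters from RefSeq, and copies from BLAST 2.17.0.

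The genes, the 19 lists, the classes and the motifs were chosen with earlier results of these data known. Named by rule were the 20 genes with the highest DSF mean, the 5 with the largest ratio, those in a list, those overlapping or closely following another gene, and those at the limits. Other genes were named after their values were seen. Counting errors and floors cover counting only, as the labels mention no molecular identifiers. Of the genes that the rule for names gives, 2 are not reported here by name, and 1 of them is not drawn in the plot of CPM by gene, though counts and sums include it.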

Additional observations from a re-analysis of the deposited data

How the results depend on the processing

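The number of genes that met the rule was 45. It was 69 with a limit of 0.5 CPM in place of 1 (24 of the 45 among them) and 20 with a ratio of at least 4. With a limit of 2 CPM it was 38, of which 21 were among the 45. TPM in place of CPM was planned and not run, since library columns of TPM were not used. Leaving out each library in turn gave 47 to 53 genes, and 30 of the 45 met the rule every time. DESeq2 called 27 of the 45, and gave an adjusted p to 34 of them.

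Over the fits that leave out 1 library, calls numbered 2565 to 2972 over all genes, 41 to 44 in the group, 5 to 6 among upstream neighbours and 59 to 73 among genes of the lists, against 3276, 45, 7 and 76 with all libraries. With upstream neighbours limited to 5 kb, 2 of 3 tested were called. The replicate block gave 3829 calls over all genes, 45 in the group, 7 neighbours and 87 list genes. Deviations of same-numbered libraries correlated at 0.0454, 0.0349 and 0.0547, and 6 of 6 libraries correlated best with their own number. The main test did not pair the libraries. Such small correlations cannot show that pairing is absent, so whether the numbers pair the libraries is not settled. Depth limits the DMSO levels, since 9 of the 45 genes had 3 counts or fewer in some DMSO library. The causes of these shifts were not tested.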

Other observations

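The authors' deposited table also gives comparisons of a group coded DC, which the labels do not explain and of which no library was analysed here. These comparisons share the DF and DO libraries that chose the genes. Genes chosen as high in DF tend to stand lower in any group set against DF. Genes chosen as low in DO tend to stand higher in any group set against DO. The counts below are therefore a description, and nothing is read from them. For DC against DF, the authors' deposited table lists all 45 genes below 0, with a median log2 fold change of -1.79, and 29 at an adjusted p under 0.05, beside 3.94% of all genes lower. For DC against DO, the authors' deposited table lists 25 of the 45 above 0, with a median of 0.07 and 0 at an adjusted p under 0.05 in either direction, beside 0.0779% of all genes higher. For Camkv, the authors' deposited table gives log2 fold changes of 5.50 for DF against DO, -5.77 for DC against DF and -0.24 for DC against DO. For Enkur, the authors' deposited table gives 3.70, -3.46 and 0.26 in the same order of comparisons.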
